A study of Mus musculus with 6 samples.

Results

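Imprinted genes are transcribed mainly from the copy inherited from a single parent, and 48 of them were followed in stroma of the fetal mouse kidney, out of 78409 genes in the deposited table. Members were taken by gene symbol, and each of the 48 symbols had 1 row. The cells were wild-type nephrogenic stroma, the connective tissue around forming nephrons, from pooled kidneys of CD1 mice at embryonic day 18. They had been sorted for the receptor PDGFRa and kept for 18 h on PDMS, a silicone, that had been incubated in fibronectin at 500 ng/mL (low adhesion, 3 libraries) or 50000 ng/mL (high adhesion, 3 libraries). Both groups shared the serum-containing medium and the PDMS, and each of 3 litters gave a library of each kind, so the design asks what more fibronectin does within a litter. CD1 is an outbred stock, and the table adds the reads of both parental copies of a gene, so parental origin was not measured here. The names paternal and maternal below state which copy is known to be active, from textbook knowledge. For some of the genes, Cd81 and Blcap among them, this is known from few tissues only and may not hold in these cells.

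Imprinting rests on DNA methylation laid down differently in egg and sperm, which keeps nearby genes silent on one parental chromosome. Many such genes sit in clusters, in which protein-coding genes active on one parental copy neighbour non-coding RNAs active on the other. As a class they are best known for setting fetal growth: several paternally expressed genes promote it, and several maternally expressed genes restrain it.

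The libraries held 12596249 to 13508257 counts, so 3 counts, the least taken as a level, stood for 0.222 to 0.238 CPM, the deposited level of a gene scaled to its library's total. Of 9 stroma markers, 7 were lower and Vim was higher at high adhesion (edgeR adjusted p under 0.05). Among the lower ones was Pdgfra, whose protein was used for the sort, at 30.7 ± 3.63 against 21.1 ± 4.87 CPM (SD, 3 litters). Their summed level was 5472 to 6273 CPM at low and 5382 to 6207 CPM at high adhesion. Of the markers of other cell types, Krt8 and Krt18 (ureteric list, sum 268.5 to 561 CPM at low and 389.3 to 808.9 CPM at high adhesion, 2 higher and 1 lower of 6 tested), Cited1 (nephron progenitor list, 47.7 to 64.4 and 53.0 to 70.8 CPM, 1 higher of 6) and Tubb3 and Elavl4 (neural list, 20.1 to 30.7 and 29.4 to 32.7 CPM, 2 higher of 3) were higher. Of the 8 ureteric markers 2 had a mean under 1 CPM, among them Wnt9b, which was at 0 in all 6 libraries. Of the 7 neural markers 4 had a mean under 1 CPM, with Snap25 and Sox10 below 0.1 CPM. The endothelial list (41.5 to 52.4 and 36.4 to 44.7 CPM) had 1 lower of 5, Emcn. DESeq2 called 6 genes of the stroma, 3 of the ureteric, 1 of the neural, 0 of the nephron progenitor and 0 of the endothelial list. No leukocyte marker (25.7 to 48.5 and 17.7 to 44.6 CPM, 6 tested) and no erythroid marker (200.0 to 316.6 and 165.5 to 331.1 CPM, 4 tested) passed in edgeR or in DESeq2, with 2 and 0 at an unadjusted p under 0.05 in edgeR. The part of these shifts in the results on imprinted genes was not tested. In bulk RNA, fewer cells of a type and less RNA per cell cannot be told apart.

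Of the 48 imprinted genes, 38 passed the filter on low counts and were tested, 17 paternal, 18 maternal and 3 whose active copy depends on isoform or tissue. At high adhesion 5 rose (Phlda2, Mirg, Meg3, Ndn, Cd81) and 3 fell (Dlk1, Plagl1, H19), and the other 30 did not pass. That is 21.1% of those tested, where 9.55% of all 14834 tested genes passed, 4.71% upwards and 4.83% downwards. Passing is commoner among well-expressed genes, and the 8 all lay above 10 CPM. Among genes of at least 10 CPM, a level chosen after the values were seen, 8 of 26 imprinted genes (30.8%) and 12.8% of all genes passed. The median log2 fold change of the 38 was 0.02 and the median of its absolute size 0.10, against -0.00 and 0.10 over all tested genes. Log2 fold changes ran from -0.70 for Dlk1 to 0.62 for Phlda2. In 4 of the 38, Dlk1, Cd81, Phlda2 and Ndn, the CPM ranges of the groups did not overlap, a smaller share than the 15.4% of all tested genes. Without the replicate block none of the 8 passed in edgeR, with adjusted p from 0.182 for Dlk1 to 0.797 for H19. Of the 38, 4 then had an unadjusted p under 0.05. For Ndn the estimate hardly depended on the block (log2 fold change 0.2221 ± 0.0537 with and 0.2222 ± 0.0536 without it). Its edgeR adjusted p without the block was 0.217, in a fit that called 36 of all genes. Only Dlk1 and Phlda2 were also called by DESeq2 with litter as block, and the same 2 were the ones left without litter 1. Without litter 3, H19 and Mirg were lost. The shares above are those of the main fit. Without litter 1 the calls fell from 8 to 2 among imprinted genes and from 1416 to 988 among all genes, so the higher share among imprinted genes was not kept there.

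**Figure D1:**
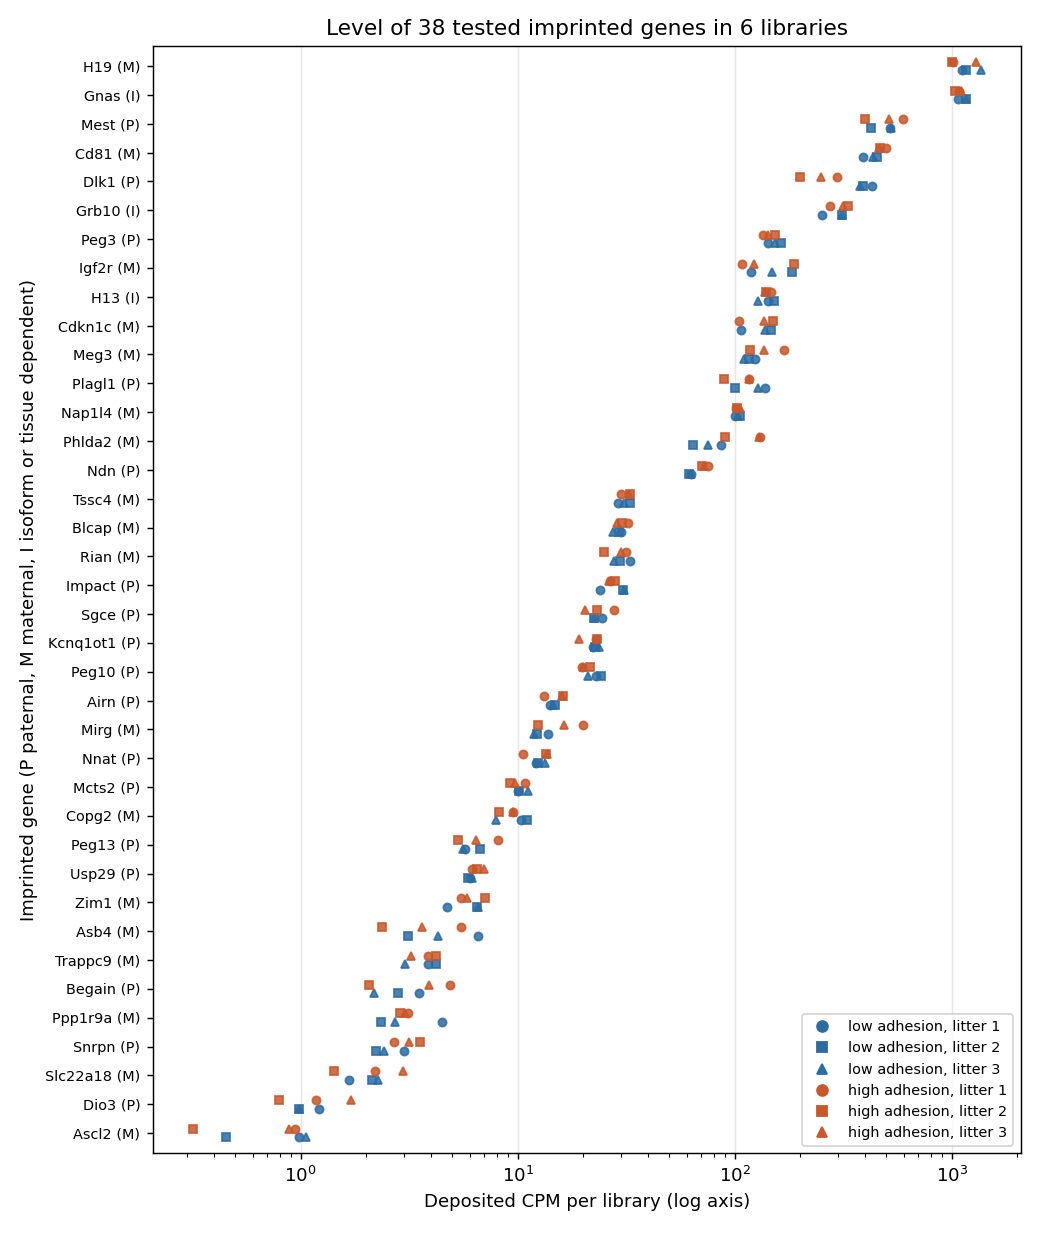
Deposited CPM of the 38 tested imprinted genes (log axis) in each of 6 libraries, blue for low and orange for high adhesion, with a marker shape per litter. Mean levels ran from 1159 CPM for H19 and 1101 CPM for Gnas to 0.774 CPM for Ascl2, and for most genes the 6 points lay close together compared with the distance between genes.

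H19, a maternally expressed long non-coding RNA that lies beside the growth factor gene Igf2, was the most abundant of the 48, also per length. It had 471.3 CPM per kilobase of exon, followed by Cd81 (156.6), Mest (125.9), Gnas (98.5), Phlda2 (85.7), Cdkn1c (64.0) and Dlk1 (57.4). Lengths came from GENCODE M21, and the scaling assumes even coverage, which the files do not show. At low adhesion H19 had 1119, 1159 and 1365 CPM in litters 1, 2 and 3, and at high adhesion 1009, 1008 and 1295 CPM. The groups overlapped because litter 3 was high on both substrates, but H19 was lower at high adhesion in 3 of 3 litters, by 0.15 ± 0.04 on the log2 scale (95% interval -0.22 to -0.07, edgeR adjusted p = 0.0106). This small fall passed in 4 of 8 alternative settings and not in DESeq2 (adjusted p = 0.0566) or without litter 1 (0.0671) or litter 3 (0.0724), with a range of 0.00744 to 0.797. Its counts held fractions in 5 of 6 libraries, so reads shared with other places or genes enter them. The H19 transcript also carries the hairpin of a microRNA pair, and Mest carries another, shown here because these are among the most abundant hosts. Capitals mark the seed, bases 2 to 8, which pairs with targets. The microRNAs themselves were not measured.
miR-675-5p (H19): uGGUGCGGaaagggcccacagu
miR-675-3p (H19): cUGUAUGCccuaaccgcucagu
miR-335-5p (Mest): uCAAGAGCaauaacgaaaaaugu
miR-335-3p (Mest): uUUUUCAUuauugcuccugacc
The sequences are from RefSeq (GRCm38.p6), and the 4 seeds all differ.

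Neither Igf2r nor Grb10, which both restrain insulin-like growth factor signalling, passed the adhesion test. Igf2r encodes the receptor that takes IGF2 to lysosomes. It had 118.9, 184.1 and 147.9 CPM at low and 108.3, 187.6 and 123.3 CPM at high adhesion in litters 1, 2 and 3, lower in 2 of 3 litters (log2 fold change -0.12 ± 0.05, edgeR adjusted p = 0.159). Litter 2 was the highest on both substrates, and without litter 2 the gene passed with a log2 fold change of -0.21 (edgeR adjusted p = 0.00237, range 0.00237 to 0.952 over 8 settings). Grb10, an adaptor that inhibits insulin and IGF receptors, had 251.7, 310.7 and 310.9 CPM at low and 276.0, 333.4 and 316.4 CPM at high adhesion. It was higher in 3 of 3 litters without passing (log2 fold change 0.08 ± 0.04, edgeR adjusted p = 0.23). Among the 18 tested genes of insulin and IGF signalling that are no members, 2 rose and 1 fell, where 9.55% of all tested genes passed. The receptor gene Igf1r (308.4 ± 29.7 to 346.6 ± 32.5 CPM, SD of 3 litters) and the adaptor gene Grb14 (log2 fold change 0.59 ± 0.14) rose. Pik3r1, a regulatory subunit of phosphoinositide 3-kinase, fell by 0.23 on the log2 scale, and DESeq2 called none of the 18. The growth factor gene Igf2 itself, named after its values were seen, averaged 806.2 ± 119 CPM on little and 817.3 ± 125 CPM on much fibronectin (SD of 3 litters; log2 fold change 0.02 ± 0.04, edgeR adjusted p = 0.869).

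Within the Kcnq1 cluster, neighbouring maternal genes behaved differently. Phlda2, which encodes a small phospholipid-binding protein known for limiting placental growth, showed the largest rise among the 38 tested of the 48 genes. It went from 86.3, 64.0 and 75.6 CPM at low to 131.4, 90.1 and 128.8 CPM at high adhesion in litters 1, 2 and 3. Each high adhesion library lay above each low adhesion library, and the gene was 1.54-fold higher (log2 fold change 0.62 ± 0.05, 95% interval 0.51 to 0.73, edgeR adjusted p = 8.29e-09, 0.304 without the replicate block, range 8.98e-29 to 0.304 over 8 settings). Cdkn1c, the cyclin-dependent kinase inhibitor p57 of the same cluster, had 107.4, 146.8 and 137.5 CPM at low and 105.1, 150.0 and 136.4 CPM at high adhesion. The libraries of a litter nearly coincided, and the log2 fold change was -0.01 ± 0.05 (95% interval -0.10 to 0.09, edgeR adjusted p = 0.968). The ratio of Phlda2 to Cdkn1c was 0.80, 0.44 and 0.55 at low and 1.249, 0.60 and 0.94 at high adhesion, higher in each litter although the groups overlapped. Of 5 other tested genes of cyclin-dependent kinase inhibitors, none passed in edgeR (2 at an unadjusted p under 0.05) or in DESeq2. Cdkn1a had 316.0 ± 22.1 and 338.5 ± 7.12 CPM at low and high adhesion (SD of 3 litters), and Cdkn2d 25.8 to 32.5 CPM over the 6 libraries.

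The promoter of Phlda2 is shown because this gene rose most. It covers the 250 bases before the RefSeq start, at chr7:143502525-143502774 on the minus strand of GRCm38.p6, with CG pairs, the sites of DNA methylation, in capitals.
Phlda2: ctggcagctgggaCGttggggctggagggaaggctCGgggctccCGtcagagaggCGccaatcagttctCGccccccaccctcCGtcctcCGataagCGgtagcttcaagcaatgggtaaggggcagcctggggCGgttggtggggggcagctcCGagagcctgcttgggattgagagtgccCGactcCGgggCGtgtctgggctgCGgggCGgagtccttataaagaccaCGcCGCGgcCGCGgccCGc
This window held 21 CG pairs, more than 83.7% of all promoter windows of that length.

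Cd81, a tetraspanin of the cell surface whose imprinting is known from placenta, rose slightly. It had 391.9, 452.7 and 433.9 CPM at low and 498.6, 467.8 and 460.4 CPM at high adhesion in litters 1, 2 and 3. The groups did not overlap, yet most of the difference came from litter 1 (log2 fold change 0.16 ± 0.05, edgeR adjusted p = 0.0293). Without litter 1 the log2 fold change was 0.07 and did not pass (adjusted p = 0.5), nor did it in DESeq2 (0.181), with a range of 0.00409 to 0.5 over 8 settings. In the rest of the cluster, the histone chaperone gene Nap1l4 and Tssc4, a factor of splicing particle assembly, had log2 fold changes of -0.01 ± 0.05 and 0.03 ± 0.07. The transporter gene Slc22a18 (2.11 CPM on average) and the trophoblast transcription factor gene Ascl2 (0.774 CPM) were low. Kcnq1ot1, the paternal non-coding RNA whose transcription silences this cluster in cis, had 19.2 to 23.7 CPM in the 6 libraries and a log2 fold change of -0.07 ± 0.08. The channel gene Kcnq1 had 24 counts in all and was not tested. The exons of both overlap on opposite strands and the strand setting of the counting is not given in the sources used here, so their reads cannot be told apart. Exons of H19, Cdkn1c, Cd81, Tssc4, Meg3, Usp29, Plagl1, Snrpn, Nnat, Gnas and H13 also overlap genes on the other strand in GENCODE M21.

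**Figure D2:**
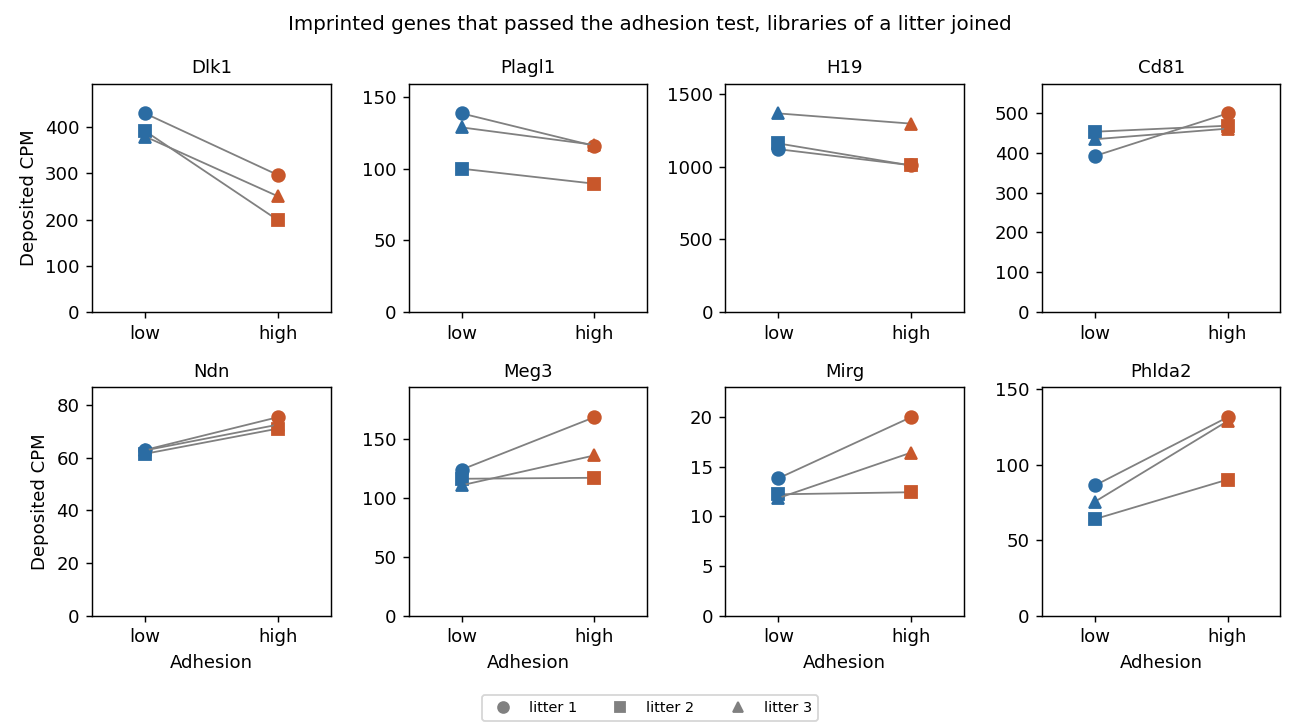
Deposited CPM of the 8 imprinted genes that passed the adhesion test, with the libraries of a litter joined and each vertical axis starting at 0. Lines slope down for Dlk1, Plagl1 and H19 and up for Cd81, Ndn, Meg3, Mirg and Phlda2 in 3 of 3 litters, and for Meg3 and Mirg the line of litter 2 is nearly flat.

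In the Dlk1-Dio3 cluster the paternal gene Dlk1 fell while 2 maternal non-coding RNAs rose. Dlk1 encodes a transmembrane protein with EGF repeats that holds back the differentiation of mesenchymal cells, fat cells above all. It had 429.6, 391.4 and 379.6 CPM at low and 296.7, 199.2 and 250.7 CPM at high adhesion in litters 1, 2 and 3. The lowest low adhesion library lay well above the highest high adhesion library, and the gene was 1.63-fold lower (log2 fold change -0.70 ± 0.07, 95% interval -0.86 to -0.55, edgeR adjusted p = 0.000149, 0.182 without the replicate block, range 7.47e-54 to 0.182 over 8 settings). This was the largest change among the 38 tested of the 48 genes.

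Meg3, Rian and Mirg are maternal long non-coding RNAs thought to arise from 1 long transcription unit. Meg3 had 124.2, 116.4 and 110.9 CPM at low and 168.6, 117.2 and 136.2 CPM at high adhesion (log2 fold change 0.25 ± 0.06, edgeR adjusted p = 0.00839). Mirg, which hosts many microRNAs, had 13.8, 12.2 and 11.8 CPM at low and 20.0, 12.4 and 16.4 CPM at high adhesion (log2 fold change 0.36 ± 0.10, edgeR adjusted p = 0.0187). Both rose in 3 of 3 litters, by little in litter 2, so the groups of each differed mainly through litters 1 and 3. Rian, the host of small nucleolar RNAs that lies between them, had 24.9 to 33.0 CPM and a log2 fold change of -0.07 ± 0.07 (edgeR adjusted p = 0.654). Meg3 was not called in DESeq2 (adjusted p = 0.0584, range 3.00e-07 to 0.567 over 8 settings) or without litter 1 (0.142), nor was Mirg in DESeq2 (0.459, range 0.00113 to 0.55) or without litter 1 (0.23) or litter 3 (0.148). Counts held fractions in 4 of 6 libraries for Meg3, 6 of 6 for Rian and 2 of 6 for Mirg, whose exons overlap those of small RNA genes.

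The ratio of Dlk1 to Meg3, taken after the values were seen and therefore given without a test, varied little between litters within each adhesion group. It was 3.46, 3.36 and 3.42 at low and 1.76, 1.70 and 1.84 at high adhesion in litters 1, 2 and 3. Litter 2, in which Meg3 hardly moved, had the largest fall of Dlk1 (log2 ratio of high to low -0.96, against -0.55 and -0.60 in litters 1 and 3). The ratio of Rian to Meg3 fell from between 0.25 and 0.27 to between 0.19 and 0.22, and that of Mirg to Meg3 was 0.11, 0.11 and 0.11 at low and 0.12, 0.11 and 0.12 at high adhesion.

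**Figure D3:**
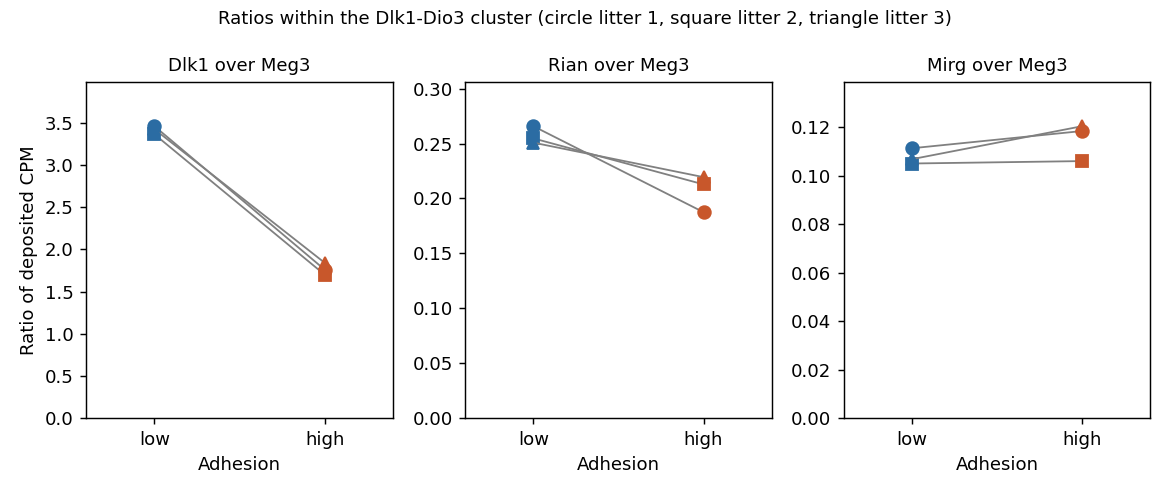
Ratios of deposited CPM within the Dlk1-Dio3 cluster in each library, with litters joined and axes starting at 0. Dlk1 over Meg3 lies between 3.36 and 3.46 in the low and between 1.70 and 1.84 in the high adhesion libraries, while Mirg over Meg3 changes little.

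The promoters of Dlk1 and Meg3 are shown side by side because these reciprocally imprinted neighbours moved in opposite directions. Both are the 250 bases before a RefSeq start on the plus strand of GRCm38.p6, at chr12:109452573-109452822 for Dlk1 and chr12:109540746-109540995 for the first of 2 starts of Meg3, with CG pairs in capitals.
Dlk1: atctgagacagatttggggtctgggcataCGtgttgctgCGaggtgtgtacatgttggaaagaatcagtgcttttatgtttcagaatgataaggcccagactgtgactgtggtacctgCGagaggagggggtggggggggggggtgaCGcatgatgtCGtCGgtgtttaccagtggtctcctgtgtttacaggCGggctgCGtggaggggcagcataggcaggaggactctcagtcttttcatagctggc
Meg3: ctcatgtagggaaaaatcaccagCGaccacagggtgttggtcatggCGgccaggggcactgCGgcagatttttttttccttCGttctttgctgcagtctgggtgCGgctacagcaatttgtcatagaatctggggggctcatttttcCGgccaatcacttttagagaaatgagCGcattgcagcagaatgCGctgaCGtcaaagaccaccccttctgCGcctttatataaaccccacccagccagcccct
Dlk1 had 8 and Meg3 10 CG pairs, more than 57% and 62.2% of all promoter windows. The Meg3 window held a match to TGCCGC, the core motif of the imprint-keeping zinc finger protein ZFP57, and the Dlk1 window none. Neither held CATTCC (bound by TEAD factors), TGANTCA (AP-1) or the CArG box of SRF, and the window of the second Meg3 start held a CArG box.

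Among the remaining genes of the cluster, the deiodinase gene Dio3, which inactivates thyroid hormone, had 0.794 to 1.70 CPM. Begain, named for its tie to guanylate kinases of synapses, had 2.06 to 4.85 CPM and was higher in 2 of 3 litters (log2 fold change 0.35 ± 0.20, edgeR adjusted p = 0.32). Without litter 2 it passed (log2 fold change 0.61, edgeR adjusted p = 0.0462, range 0.0462 to 0.999 over 8 settings). Rtl1, a paternal gene derived from a retrotransposon, had 2 counts in the 6 libraries together. On the strand opposite to Rtl1 the maternal copy carries microRNAs that match Rtl1 RNA perfectly, of which 3 well-known arms are shown with seeds in capitals (RefSeq, GRCm38.p6). They were not measured.
miR-127-3p: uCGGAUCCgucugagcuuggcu
miR-136-5p: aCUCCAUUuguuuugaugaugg
miR-431-5p: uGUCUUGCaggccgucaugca
In all, 11 mature microRNAs of the RefSeq table lay opposite Rtl1 with 11 different seeds, and 26 lay within Mirg with 25 seeds.

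Of 2 paternal regulators outside the Dlk1-Dio3 cluster, Plagl1 fell and Ndn rose. Plagl1, a zinc finger transcription factor that acts on a network of other imprinted genes, had 138.5, 99.9 and 128.7 CPM at low and 115.8, 89.5 and 116.6 CPM at high adhesion in litters 1, 2 and 3. It was lower in 3 of 3 litters although litter 2 kept the groups overlapping (log2 fold change -0.19 ± 0.05, edgeR adjusted p = 0.00985). It was not called in DESeq2 (adjusted p = 0.168) or without litter 1 (0.176), with a range of 0.00242 to 0.759 over 8 settings, and its counts held fractions in 5 of 6 libraries. Ndn encodes necdin, a protein that promotes exit from the cell cycle. Its levels lay close together within each group, at 62.9, 61.5 and 62.8 CPM at low and 75.3, 71.0 and 72.5 CPM at high adhesion, so that the groups did not overlap. The rise was 1.17-fold (log2 fold change 0.22 ± 0.05, edgeR adjusted p = 0.00713) and did not pass in DESeq2 (0.166) or without litter 1 (0.0626), with a range of 0.00616 to 0.217. Its neighbours Snrpn, a splicing protein gene, and Magel2, a relative of Ndn, had 2.23 to 3.56 CPM and 11 counts in all.

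The promoter of Ndn is shown because this paternal gene rose without overlap between the groups, as the maternal Phlda2 did. It lies at chr7:62348027-62348276 on the plus strand of GRCm38.p6, with CG pairs in capitals.
Ndn: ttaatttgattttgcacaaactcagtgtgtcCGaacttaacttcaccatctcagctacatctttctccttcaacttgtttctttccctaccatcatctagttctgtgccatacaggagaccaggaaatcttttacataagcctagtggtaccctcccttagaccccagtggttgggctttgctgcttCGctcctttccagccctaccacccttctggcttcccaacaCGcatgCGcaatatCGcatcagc
It held 5 CG pairs, more than 44.4% of all promoter windows, and like the Phlda2 and Dlk1 windows none of the 4 motifs. Over the 36 members with an entry, 54 windows had a median of 13 CG pairs, where all 32851 windows had 6. TGCCGC on either strand was found in 16.7% of these windows and 8.68% of all windows, CATTCC on either strand in 14.8% and 12.6%, TGANTCA in 3.7% and 6.75%, and the CArG box in 1.85% and 1.47%. TGCCGC itself holds a CG pair, and whether its share goes beyond the CG content of these windows was not tested. Members with several starts contribute several windows, some of them overlapping.

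The remaining paternal genes did not pass the adhesion test. Mest, a hydrolase-like gene of growing mesoderm, had 519.1, 424.4 and 523.4 CPM at low and 597.5, 400.1 and 515.4 CPM at high adhesion, higher in litter 1 only (log2 fold change 0.03 ± 0.04, 95% interval -0.06 to 0.12, edgeR adjusted p = 0.775). Its exons overlap those of the maternal Copg2, a coatomer subunit gene with a mean of 9.41 CPM, on the opposite strand. Peg3, a large zinc finger protein linked to cell survival, had 142.4, 162.7 and 153.9 CPM at low and 134.7, 153.6 and 143.1 CPM at high adhesion, lower in 3 of 3 litters without passing (log2 fold change -0.09 ± 0.04, edgeR adjusted p = 0.218). Its neighbours, the paternal Usp29 and the maternal Zim1, had log2 fold changes of 0.11 ± 0.13 and 0.04 ± 0.13. Peg10, another gene derived from a retrotransposon, was lower in 3 of 3 litters (log2 fold change -0.16 ± 0.08, edgeR adjusted p = 0.215), whereas Sgce, the sarcoglycan gene beside it, had 0.04 ± 0.08. Impact, a regulator of the stress kinase GCN2, the small membrane protein gene Nnat and the retrogene Mcts2 had log2 fold changes of -0.08, -0.01 and -0.08. Airn, the paternal non-coding RNA that silences Igf2r, had 13.2 to 16.2 CPM and 0.06 ± 0.09.

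Of the genes whose imprinting depends on isoform, Gnas, the stimulatory G protein subunit, had 1067, 1164 and 1162 CPM at low and 1077, 1039 and 1100 CPM at high adhesion. It was lower in 3 of 3 litters once library scaling was applied, by a small amount (log2 fold change -0.08 ± 0.04, edgeR adjusted p = 0.213). H13, the signal peptide peptidase, had 141.6, 151.0 and 128.6 CPM at low and 147.0, 139.2 and 138.3 CPM at high adhesion (log2 fold change 0.01 ± 0.05, edgeR adjusted p = 0.938). Counts per gene add all isoforms, so a shift between imprinted and non-imprinted isoforms of Gnas, Grb10 or H13 would not show.

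The 10 imprinted genes that were not tested did not pass the filter on low counts, with mean levels from 0 CPM for Kcnk9 to 0.636 CPM for Ddc. Kcnk9 had 0 counts in 6 of 6 libraries, which allows a level of up to 0.222 to 0.238 CPM in each (3 counts, counting error only). Slc22a3, a transporter gene, had 1 count in all libraries together, Rasgrf1 5, Calcr 7, Nap1l5 31, Klf14 33 and Ddc, an aromatic amino acid decarboxylase gene, 50. With Rtl1, Magel2 and Kcnq1 these make the 10. Of the tested genes whose imprinting is known from few tissues, Blcap had 27.4 to 32.3 CPM, Peg13 5.32 to 8.10 CPM, Trappc9 3.02 to 4.21 CPM and the neurabin gene Ppp1r9a 2.35 to 4.48 CPM. Asb4, an ankyrin repeat gene, had 2.38 to 6.53 CPM. None of these 5 passed the adhesion test.

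Set side by side, the fold changes of all tested paternal and maternal genes did not separate by direction. Of 17 tested paternal genes 1 rose, 2 fell and 14 did not pass (17.6% called), with 9 log2 fold changes above and 8 below 0 and a median of 0.03. Of 18 tested maternal genes 4 rose, 1 fell and 13 did not pass (27.8% called), with 9 above and 9 below 0 and a median of 0.01. Among those with widely known imprinting, 1 of 15 paternal genes rose and 2 fell (20% called). Of 10 such maternal genes 3 rose and 1 fell (40% called). The rises of Meg3 and Mirg may come from 1 transcription unit, which was not tested. Rian, thought to belong to the same unit, did not pass (log2 fold change -0.07 ± 0.07). The background is the 9.55% given above, or 12.8% among genes of at least 10 CPM. The classes also differed in level. Tested genes with widely known imprinting had a median of 62.76 CPM if maternal and 22.35 CPM if paternal, against 15.09 CPM over all tested genes. Neither difference between the classes was tested. In summed level, the paternal genes had 1443, 1297 and 1404 CPM at low and 1376, 1068 and 1247 CPM at high adhesion in litters 1, 2 and 3, lower in each litter. The fall of Dlk1 was larger than that of the sum in litter 1 and smaller in litters 2 and 3, so other paternal genes were lower there too. The maternal genes summed to 2189, 2363 and 2501 CPM at low and 2267, 2250 and 2524 CPM at high adhesion, with no common direction. Those of them with widely known imprinting summed to 1617, 1724 and 1890 CPM at low and 1588, 1601 and 1879 CPM at high adhesion. That sum, most of it H19, was lower in each litter, as the paternal sum was.

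**Figure D4:**
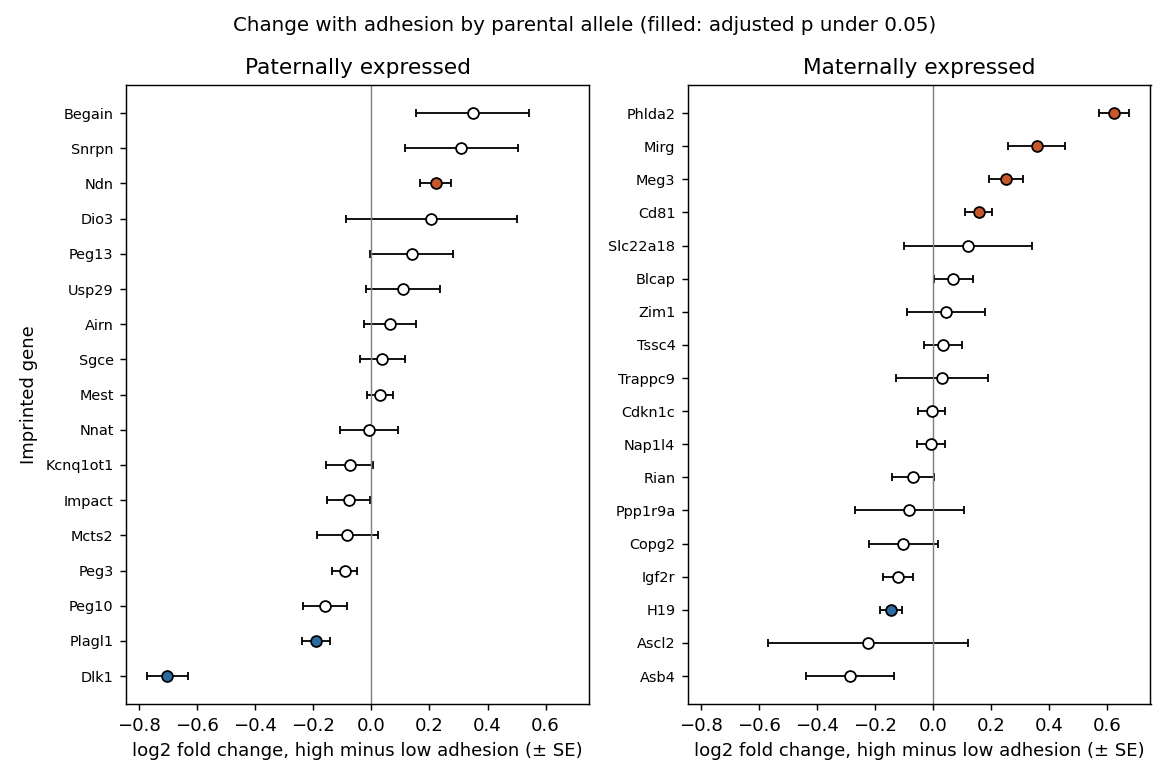
Log2 fold change, high minus low adhesion, with its standard error for 17 paternally and 18 maternally expressed genes, sorted within each panel and filled where the edgeR adjusted p was under 0.05. Both panels straddle 0, with Dlk1 at -0.70 and Phlda2 at 0.62 as the extremes.

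Litter was the other source of variation, and 11 of the 38 tested genes (28.9%) differed between litters in the same model, where 17.9% of all genes did. Among genes of at least 10 CPM the shares were 38.5% (10 of 26) and 21.8%. The 11 were H19, Mest, Grb10, Peg3, Igf2r, Cdkn1c, Meg3, Plagl1, Phlda2, Mirg and Asb4. Igf2r differed most clearly (litter F-test, edgeR adjusted p = 1.30e-08), with litter means over both substrates of 113.6, 185.8 and 135.6 CPM in litters 1, 2 and 3. Cdkn1c followed (edgeR adjusted p = 6.58e-07) with 106.3, 148.4 and 137.0 CPM, while its adhesion interval of -0.10 to 0.09 held 0. Litter 2 was the highest for Igf2r, Cdkn1c, Grb10 and Peg3, and the lowest for Mest (558.3, 412.2 and 519.4 CPM), Plagl1, Phlda2, Meg3, Mirg and Asb4. H19 was highest in litter 3. Of all tested members, 7 of 18 maternal (38.9%) and 3 of 17 paternal genes (17.6%) differed between litters. Among those with widely known imprinting it was 7 of 10 and 3 of 15, and neither contrast was tested. In that narrower contrast the maternal genes also had the higher median level (62.76 against 22.35 CPM). Ndn, Cd81, Gnas, H13 and Nap1l4 did not pass this test, and Dlk1 missed it (edgeR adjusted p = 0.0552). Each litter is a pool of kidneys, so differences between pups are averaged. How the litters differed in stage or handling is not given in the sources used here.

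**Figure D5:**
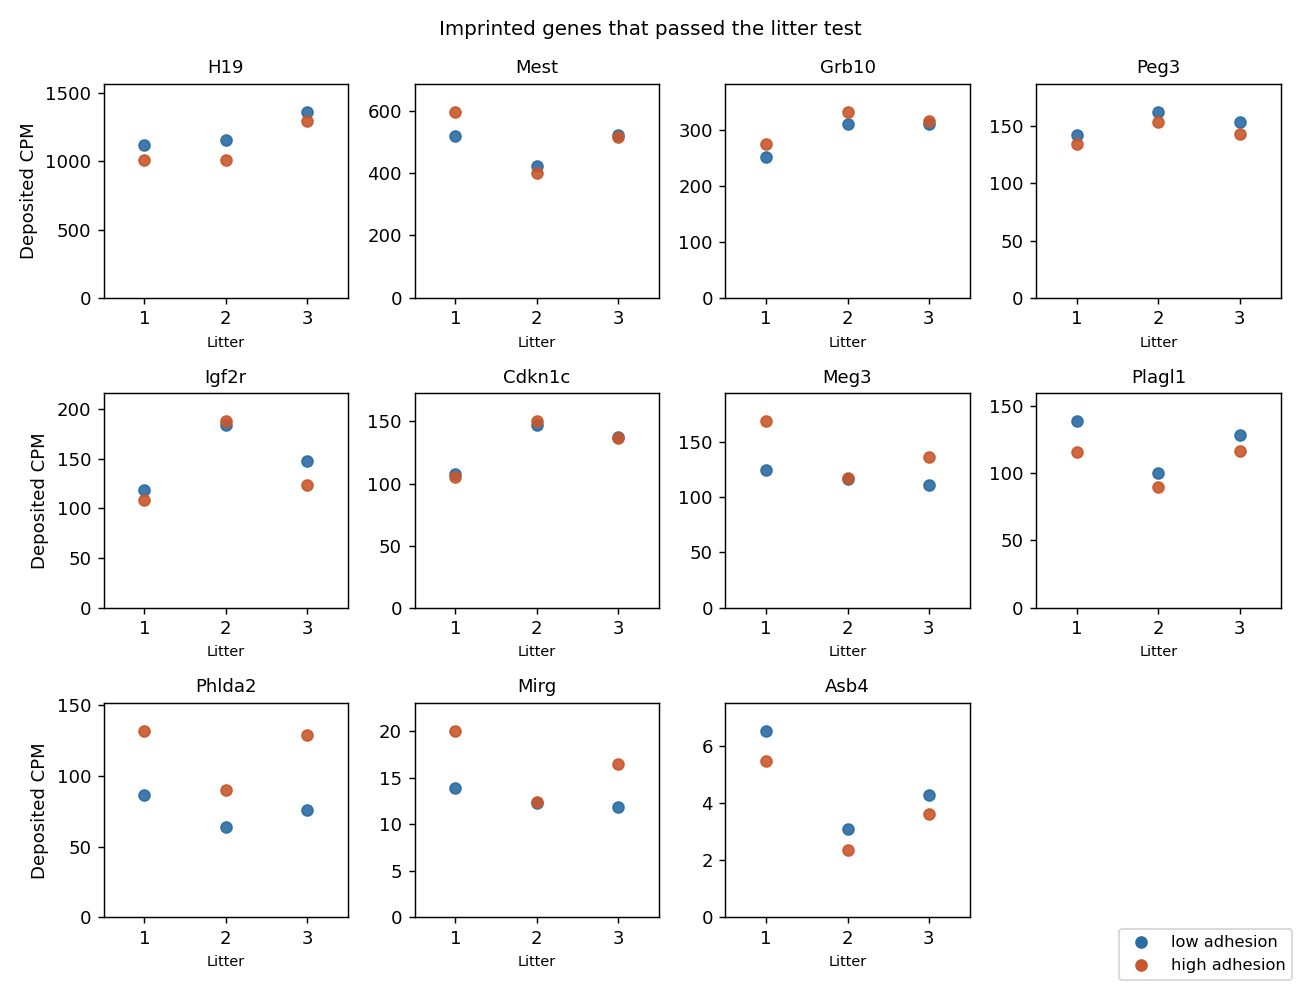
Deposited CPM of the 11 imprinted genes that passed the litter test, by litter, with low adhesion in blue and high adhesion in orange and axes starting at 0. For Cdkn1c the points of a litter nearly coincide and litter 1 is the lowest, whereas for Phlda2 the substrates also part within each litter.

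Imprinted genes outside the 48 were also counted. Of 27 tested, 2 rose, 3 fell and 22 did not pass, where 9.55% of all tested genes passed. Cobl, an actin nucleator gene beside Grb10, went from 1.57 ± 0.39 to 3.59 ± 1.47 CPM (SD of 3 litters, log2 fold change 1.19 ± 0.21), and Osbpl5, a lipid transfer protein gene near Phlda2, from 37.8 ± 1.34 to 44.6 ± 1.56 CPM. Tfpi2, a protease inhibitor gene, Atp10a, a lipid flippase gene, and the chromatin gene Jade1 fell by 0.56, 0.21 and 0.14 on the log2 scale. DESeq2 called none of these 5. Of 21 tested genes that keep or erase imprints or silence alleles, none rose and 18 did not pass. The other 3 fell, where 4.83% of all tested genes fell. The 3 were the chromatin remodeller gene Hells (79.9 ± 2.03 to 65.7 ± 6.63 CPM), the de novo DNA methyltransferase gene Dnmt3a (77.1 ± 6.36 to 63.6 ± 8.80 CPM) and Smchd1, a chromatin silencing gene (59.2 ± 1.66 to 49.2 ± 0.84 CPM, SD of 3 litters each), and DESeq2 called 2 genes of this list. The maintenance methyltransferase gene Dnmt1, the imprint-reading Zfp57 and its partner Trim28 had log2 fold changes of -0.12 ± 0.05, 0.17 ± 0.11 and 0.07 ± 0.04 and did not pass. DNA methylation was not measured.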

How the data were processed

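Polyadenylated RNA of 6 libraries (3 litters on 2 substrates) was sequenced. The submitters' processing notes name fastp 0.24.0, STAR 2.7.11 and featureCounts of Subread 2.1.1 with GRCm39; no source used here gives the annotation release or strand setting. Estimated counts per gene, some of them fractional, and CPM values scaled to each library's total were deposited by the authors. Levels printed are the deposited CPM. Counts were rounded to whole numbers and fitted for all genes with edgeR 4.0.16 (R 4.3.3): filterByExpr (14834 genes kept), TMM (factors 0.988 to 1.011), a robust quasi-likelihood F-test with litter as block, 2 residual degrees of freedom and Benjamini-Hochberg adjustment over all tested genes, two-sided at 0.05. Replicates are separate litters. Errors of fold changes are standard errors, the fold change over the root of F. The series' design text states litter matching, and deviations from group means correlated at 0.58, 0.58 and 0.36 within litters and -0.49 to -0.08 between them, across genes, which are not independent. Litter was tested with a 2-coefficient F-test. On simulated data (14834 genes, 200 changed, all above 5 CPM), 74.6%, 97% and 98.5% of changes of 1.25-, 1.5- and 2-fold were recovered for the adhesion comparison, and 6.25% of calls were unchanged genes. The simulated counts were drawn from the same fitted model and its dispersions, so these shares cannot show how calls depend on the model. Alternatives used DESeq2 1.42.0, RLE scaling, no filter, counts rounded down, no block and leaving out each litter.

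Members, allele classes and gene lists were chosen with earlier results of these data known. Full values are given for members called for adhesion and the 12 of highest mean CPM, and of each list up to 4 called genes of lowest adjusted p, or 2 of highest mean CPM where none was called; Igf2, Jade1, Dnmt1, Zfp57, Trim28 and the marker genes were named after their values were seen. Exon lengths, overlaps and sequences come from GENCODE M21 and RefSeq (GRCm38), which is not the build of the counts.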

Additional observations from a re-analysis of the deposited data

How the results depend on the processing

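The number of adhesion calls depended on the pairing by litter. In edgeR without the replicate block, 36 of all genes passed (20 higher, 16 lower; 1416 with it), and of the imprinted genes 0 passed: 0 higher, 0 lower, 0 paternal (0 higher, 0 lower) and 0 maternal (0 higher, 0 lower). DESeq2 with litter as block called 406 genes (207 higher, 199 lower) and 2 imprinted genes, 1 higher and 1 lower: 1 paternal (0 higher, 1 lower) and 1 maternal (1 higher, 0 lower). It called 866 genes for litter, 7 of them imprinted. RLE scaling, no filter on low counts and counts rounded down each kept the same 8 imprinted genes. Leaving out each litter in turn gave 908 to 1553 genes (426 to 734 higher, 482 to 819 lower) and 2 to 10 imprinted genes (1 to 6 higher, 1 to 4 lower). By class this was 1 to 4 paternal (0 to 2 higher, 1 to 2 lower) and 1 to 6 maternal (1 to 4 higher, 0 to 2 lower). The lowest of these imprinted counts came without litter 1 and the highest without litter 2, which added Igf2r and Begain. Litter calls ran from 1384 to 2687 genes and from 5 to 12 imprinted genes. These fits use 2 pairs, so fewer samples estimate the spread. For the other changes of count the cause was not tested. No imprinted gene that was called changed direction in any setting. Depth limits the low genes: 10 of the 48 had too few counts to test.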
